A study of Mus musculus with 12 samples.

Results

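Total RNA was sequenced from MEF, which are fibroblasts cultured from mouse embryos, with and without halofuginone (HF). HF is a small molecule known to occupy the prolyl-tRNA synthetase site of EPRS, so that uncharged proline tRNA builds up. The 3 RNA HF libraries came from cells kept for 6 h with 100 nM HF in high-glucose DMEM with 10% dialyzed fetal bovine serum. The 3 RNA control libraries came from cells kept for 6 h in the same medium without HF. The dialyzed serum, and growth beforehand in medium with whole serum and antibiotics, were therefore shared by both groups. These 6 libraries were chosen by their labels from the 12 of the study, and the other 6 are ribosome footprints (RPF) of the same groups. The labels name no strain, genotype, line or passage of the MEF, and do not say that replicates are separate cultures, so the p-values reflect only how far these libraries differ from each other, and that spread may be technical.

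As background, cells that run short of a charged tRNA activate the kinase GCN2, which phosphorylates eIF2, lowers general translation and lets transcription factors such as ATF4 accumulate. Total RNA shows the outcome of transcription and decay together for each gene, including genes that have no link to amino acids. Here all genes are described, with weight on those outside the stress response itself: early-response genes, secreted signals, the clock, chromatin, RNA regulators, the cytoskeleton, glycans and non-coding RNA.

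The 6 libraries were shallow, with 718096 to 1697554 counts each, which limits what can be said of weakly expressed genes. HF and control libraries separated on the first principal component of the log values, which held 65.8% of the variance, and RNA control 2, the library with the fewest counts, stood apart on the second (11.7%). Fibroblast markers listed for this check, such as Col1a1, Col1a2, Fn1 and Vim, summed to 7926 to 8281 CPM in control and 9483 to 9801 CPM in HF libraries (CPM are library-size-scaled counts, with TMM factors). The higher sum in HF rested on Fn1, the only marker that rose of 9 tested, while Col1a1, Col1a2, Pdgfrb and S100a4 fell, by 0.93, 0.68, 2.30 and 1.23 on the log2 scale. Of the 14 fibroblast markers, 11 had counts, and Dcn, Lum and Postn were at 0 in every RNA library. Col3a1 and Pdgfra had too few counts to be tested, with at most 8.40 and 11.2 CPM in any RNA library. Summed markers stayed at or below 1.96 CPM for epithelium, 15.7 CPM for endothelium, 5.89 CPM for macrophages and 8.80 CPM for adipocytes. The endothelial sum was 0 to 1.61 CPM in control and 5.28 to 15.7 CPM in HF libraries, with Pecam1 and Tek at 0, and the part of such cells in the results was not tested. Muscle markers summed to 16.9 to 24.2 CPM in control and 9.82 to 19.3 CPM in HF libraries, and neural markers to 321 to 361 and 318 to 347 CPM, most of it Nes. Erythroid and pluripotency markers were at 0. In bulk RNA, fewer cells of a type and less RNA per cell cannot be told apart, and all values are shares of a library, since no spike-in is described.

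Of 9145 genes tested, 22.2% rose and 21.4% fell in HF (edgeR quasi-likelihood test, Benjamini-Hochberg adjusted p under 0.05), so 43.7% changed. Most calls were of moderate size. The median log2 fold change was 1.04 among the genes that rose and −0.94 among those that fell, and −0.02 over all genes tested. The control and HF libraries did not overlap in 51.3% of genes. A fitted change of at least 2-fold was reached by 11.8% of genes upward and 9.71% downward. Asking the test itself for a change beyond 2-fold left 377 higher and 203 lower genes. At the top end, 61 genes rose and 23 fell by at least 3 on the log2 scale. The share of protein-coding genes called higher went from 10.5% in the least abundant of 5 equal groups by mean level to 37.4% in the most abundant, and the share called lower from 13.7% to 28.4%.

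**Figure D1:**
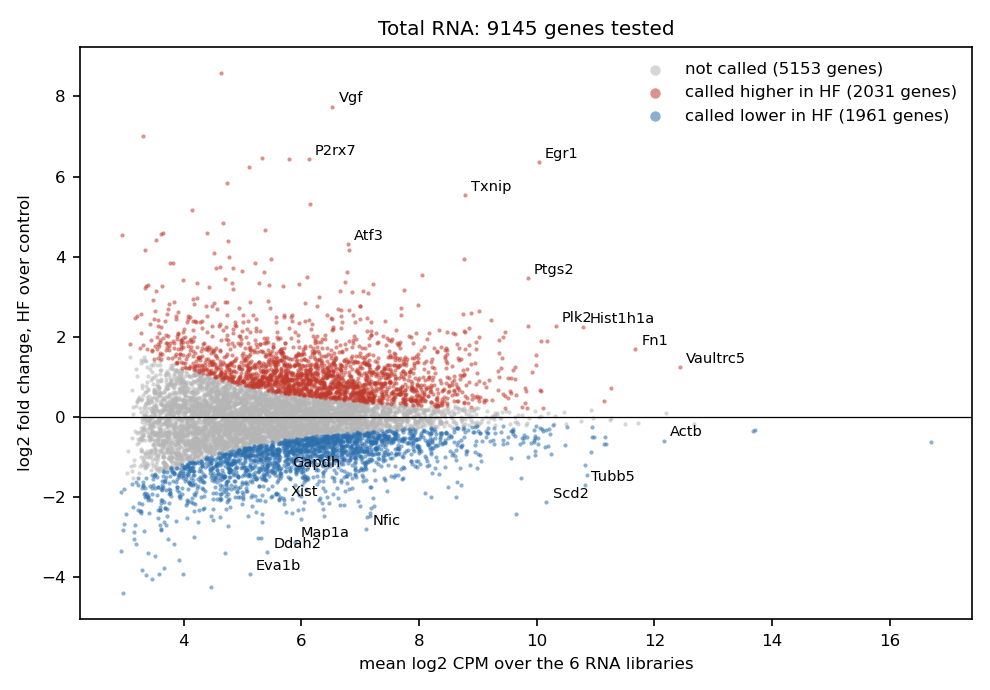
Log2 fold change of HF over control (y axis) against the mean log2 CPM over the 6 RNA libraries (x axis) for the 9145 genes tested, each point a gene, with genes called higher in red, called lower in blue and not called in grey. Egr1 and Vgf lie far above the cloud, Eva1b and Ddah2 below it, and the band of grey points narrows as the mean level rises.

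Protein-coding genes took 75.4% ± 1.31 of control counts and 81.03% ± 1.13 of HF counts (SD, n = 3 each). The 2 ribosomal RNA loci Gm42418 and Gm26917 together took 12.9% ± 0.953 and 8.33% ± 1.08, the largest fall in share of any class of RNA. Within protein-coding genes the change was spread over many genes. The 12 largest gains made up 11.02% of the CPM gained by those called higher, and the 12 largest losses 11.6% of the CPM lost by those called lower. It took 251 genes to account for 50% of the gain and 278 genes for 50% of the loss. The largest gain was that of Fn1 (ENSMUSG00000026193, chr1:71585473-71653280), which encodes the matrix glycoprotein fibronectin. Fn1 stood at 1556, 1528 and 1537 CPM in the control libraries and 5004, 5102 and 4832 CPM in the HF libraries (log2 fold change 1.69 ± 0.075, adjusted p = 7.8e-30; here and below ± is the standard error). The HF libraries lay within a narrow band far above the controls, which were close to each other too.

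Linker histone genes were prominent among the gains. Hist1h1a, which encodes a histone H1 subtype that binds DNA between nucleosomes, was at 609, 658 and 569 CPM in the control libraries and 3062, 2789 and 2869 CPM in the HF libraries (log2 fold change 2.25 ± 0.086, adjusted p = 2e-33). Hist1h1c, Hist1h1d and Hist1h1b were also among the 12 largest gains, with log2 fold changes of 2.27, 1.54 and 1.29. Histone genes have near-identical copies, so their reads may be divided between copies.

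The other 7 of the 12 largest gains were Egr1, Ptgs2, Plk2, Thbs1, Sqstm1, Flnc and Ahnak. Egr1, a zinc finger factor induced within minutes of many stimuli, was at 24.96, 29.6 and 21.00 CPM in the control libraries and 2108, 1953 and 2099 CPM in the HF libraries (log2 fold change 6.36 ± 0.13, adjusted p = 1.9e-49). Ptgs2, the inducible cyclooxygenase of prostaglandin synthesis, was at 126, 156 and 176 CPM in the control libraries and 1651, 1662 and 1710.1 CPM in the HF libraries (log2 fold change 3.46 ± 0.11, adjusted p = 6.4e-39). Plk2, a polo-like kinase (ENSMUSG00000021701, chr13:110395044-110400844), was at 422, 476 and 417 CPM in the control libraries and 2256, 2046 and 2019 CPM in the HF libraries (log2 fold change 2.27 ± 0.091, adjusted p = 2.4e-32). The rise in Egr1 was the steepest, and in each of the 3 genes the HF libraries lay close together. Thbs1, a matrix glycoprotein that regulates adhesion, went from 489 to 1811 CPM, and Sqstm1, the autophagy receptor p62, from 263 to 1138 CPM (group means). Flnc, an actin crosslinker of the filamin family, went from 452 to 1683 CPM, and the very large scaffold gene Ahnak from 1862 to 3069 CPM, with log2 fold changes of 1.90 ± 0.091 and 0.72 ± 0.078.

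The 12 largest losses were in abundant genes of diverse roles, led by Tubb5, Actb, S100a6 and Scd2. Tubb5, a beta-tubulin, was at 2706, 2736 and 2816 CPM in the control libraries and 878, 777 and 887 CPM in the HF libraries (log2 fold change −1.70 ± 0.083, adjusted p = 8.9e-28). Scd2, a stearoyl-CoA desaturase that makes monounsaturated fatty acids, was at 1959, 1708 and 1945 CPM in the control libraries and 428, 442 and 423 CPM in the HF libraries (log2 fold change −2.12 ± 0.09, adjusted p = 6.1e-31). S100a6, a calcium-binding protein, was at 2725, 2549.8 and 2829 CPM in the control libraries and 1050.2, 937 and 973 CPM in the HF libraries (log2 fold change −1.45 ± 0.082, adjusted p = 1.9e-24). Each of these had its 3 HF libraries well below its 3 control libraries, with little spread inside a group. Cavin1, a coat protein of caveolae, went from 1275 to 438 CPM, and Lgals1, which encodes galectin-1, from 2509.9 to 1370.2 CPM. The matrix genes Col1a1 and Bgn went from 1587 to 830.0 CPM and from 1330.0 to 682 CPM, opposite in direction to Fn1. Hsp90ab1, a cytosolic chaperone, fell by 0.67 on the log2 scale, the elongation factor gene Eef2 by 0.68, the ribosomal scaffold gene Rack1 by 0.51 and Rpl8 by 0.70.

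**Figure D2:**
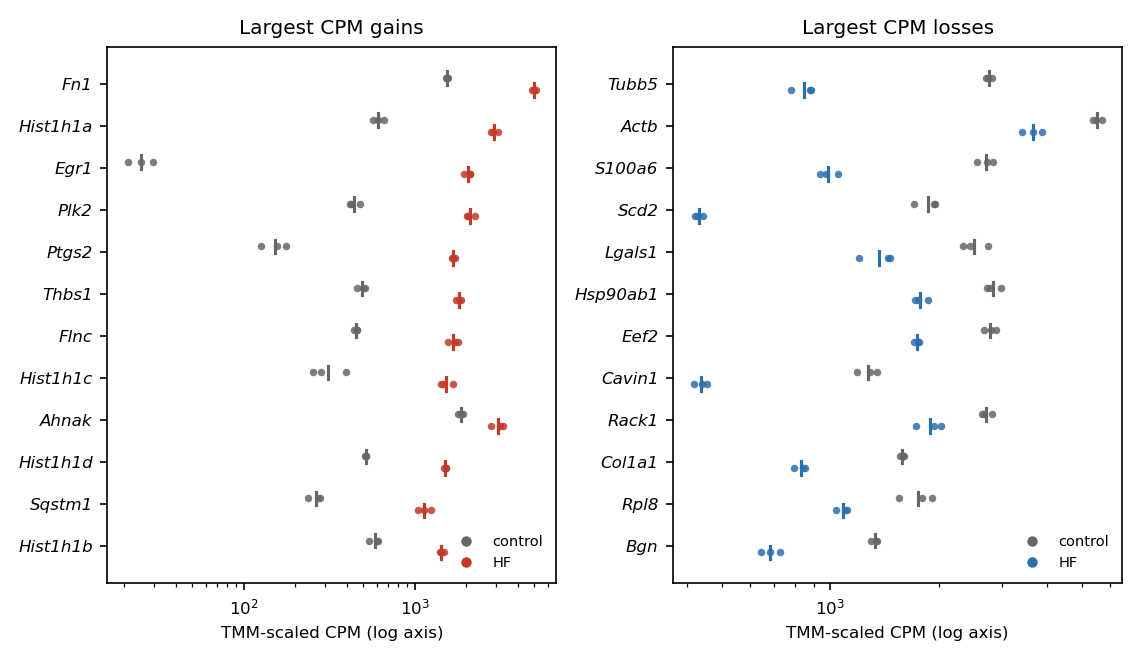
TMM-scaled CPM on a log axis for the 12 protein-coding genes with the largest gains (left) and the 12 with the largest losses (right), with 3 control libraries in grey, 3 HF libraries in colour and a short line at each group mean. The control and HF libraries of a gene do not overlap, which the choice of these 24 genes required, and Egr1 spans the widest distance.

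Several of the steepest increases started from almost no control counts. Vgf, a secreted neuropeptide precursor, had 2 counts over the 3 control libraries and 680 over the 3 HF libraries, a ratio of 256 after scaling, with a 95% counting interval of 45.7 to 10149. Egr2, a paralog of Egr1, had 3 and 388 counts, a ratio of 97.5 (interval 19.96 to 608). For Fos, a subunit of the AP-1 factor, the counts were 2 and 230 and the ratio 86.7 (interval 15.2 to 3452). Tcim, a transcriptional and immune response regulator, had 2 and 276 counts, a ratio of 104 (interval 18.4 to 4137). These intervals cover counting error only and were computed on halved counts, because low counts in these tables were mostly even and may not be independent. Each of the 4 had counts in all 3 HF libraries and none in at least 1 control library.

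Other steep increases had more control counts behind them, though P2rx7, Arc and Gdnf also had few. No counting interval was computed for these genes, so the size of their increase is uncertain. Txnip (ENSMUSG00000038393, chr3:96557957-96561857), which binds thioredoxin and restrains glucose uptake, was at 11.3, 31.01 and 16.8 CPM in the control libraries and 894, 869 and 772 CPM in the HF libraries (log2 fold change 5.54 ± 0.17, adjusted p = 1.6e-39). P2rx7, an ATP-gated cation channel, was at 1.61, 2.82 and 0 CPM in the control libraries and 145, 123 and 117 CPM in the HF libraries (log2 fold change 6.43 ± 0.40, adjusted p = 2.6e-22), and the synaptic early-response gene Arc went from 2.90 to 127 CPM. Gadd45a and Gadd45g, small stress-induced proteins that bind MAP kinase kinase kinases and growth arrest factors, went from 11.2 to 201 CPM and from 52.1 to 802 CPM. Within Gadd45a the control libraries were uneven, since RNA control 3 had 23.1 CPM against 4.83 and 5.64 CPM in the others, yet all were far below the HF libraries. Gdnf, a secreted neurotrophic factor, went from 2.71 to 72.7 CPM.

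Among genes whose mean log2 CPM was 5 or more and whose groups did not overlap, the 12 lowest fold changes belonged to genes of diverse roles. Some less abundant genes fell further, such as Chst1 at −4.25. Nfic, a transcription factor of the nuclear factor I family (ENSMUSG00000055053, chr10:81396191-81431919), was at 239, 218 and 269.9 CPM in the control libraries and 33.4, 35.4 and 35.3 CPM in the HF libraries (log2 fold change −2.80 ± 0.17, adjusted p = 2.6e-22). Map1a, a microtubule-associated protein best known in neurons, was at 92.6, 116 and 119.7 CPM in the control libraries and 12.3, 11.8 and 12.95 CPM in the HF libraries (log2 fold change −3.12 ± 0.27, adjusted p = 8.5e-16). Angptl2, a secreted glycoprotein, was at 267, 242 and 217 CPM in the control libraries and 41.3, 52.1 and 44.7 CPM in the HF libraries (log2 fold change −2.40 ± 0.17, adjusted p = 5e-20). In these genes the control libraries were several times higher than any HF library. Eva1b went from 63.98 to 4.18 CPM, Ddah2, a relative of the dimethylarginine-hydrolysing enzyme, from 80.6 to 7.19 CPM, and the integrin subunit gene Itgb5 from 111 to 18.8 CPM. Ndufb9, a subunit of respiratory complex I, went from 70.1 to 10.5 CPM, and Hspa8, the constitutive HSC70 chaperone, from 236 to 41.6 CPM. Hmgcs1 and Nsdhl, enzymes of cholesterol synthesis, had log2 fold changes of −2.48 ± 0.17 and −3.02 ± 0.33.

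Promoter stretches of 8 genes that changed are shown here because 2 short motifs of stress-linked factors, CRE and CARE, are each found in several of the 7 that rose. The stretches lie before a RefSeq transcript start (GRCm38.p6), which for Slc7a11 and Dusp8 is a start inside the span of the gene, and each is written 5′ to 3′ on the gene's strand. Capitals mark TGACGTCA (the cyclic AMP response element, CRE, bound by CREB and ATF family factors) and TATAAA in Areg, and TGACGTCA alone in Plk2, Dusp8 and Btg2.
Areg: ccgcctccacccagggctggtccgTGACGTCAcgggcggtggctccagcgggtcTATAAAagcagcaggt
Plk2: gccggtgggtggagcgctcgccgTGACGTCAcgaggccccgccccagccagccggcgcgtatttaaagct
Dusp8: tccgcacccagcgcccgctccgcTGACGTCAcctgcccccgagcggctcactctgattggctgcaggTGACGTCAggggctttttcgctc
Btg2: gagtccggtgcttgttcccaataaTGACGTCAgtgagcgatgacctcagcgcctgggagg
In Atf3, Gadd45g and Slc7a11, capitals mark TGATGNAA on either strand, a core of the element bound by C/EBP and ATF pairs (CARE), and in Gadd45g also TATAAA. In Hmgcs1, which fell, they mark TCACNCCAC, a form of the sterol regulatory element.
Atf3: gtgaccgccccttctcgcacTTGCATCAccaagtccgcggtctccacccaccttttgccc
Gadd45g: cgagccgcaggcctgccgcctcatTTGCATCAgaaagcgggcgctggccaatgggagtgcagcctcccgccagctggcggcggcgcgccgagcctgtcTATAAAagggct
Slc7a11: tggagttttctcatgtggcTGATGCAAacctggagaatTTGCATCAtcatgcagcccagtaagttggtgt
Hmgcs1: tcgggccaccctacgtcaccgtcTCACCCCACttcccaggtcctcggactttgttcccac
The stretches are chr5:91139514-91139583 (plus strand) for Areg, chr13:110394959-110395028 (plus strand) for Plk2, chr7:142095325-142095414 (minus strand) for Dusp8, chr1:134079286-134079345 (minus strand) for Btg2, chr1:191183404-191183463 (minus strand) for Atf3, chr13:51846550-51846659 (plus strand) for Gadd45g, chr3:50443629-50443698 (minus strand) for Slc7a11 and chr13:119690191-119690250 (plus strand) for Hmgcs1. These genes were picked for print after their values and matches were seen. Dusp8 holds 2 such CRE sites and Slc7a11 holds 2 CARE matches in opposite orientation. A match is a description of letters and shows no binding.

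RefSeq windows of 300 bases (250 before and 50 after the start) were matched to 6988 of the 8561 protein-coding genes tested, using the first window listed for a gene and both strands. TGACGTCA was found in 6.32% of the 823 windows of genes that rose at least 2-fold, in 3.88% of the 3888 windows of genes not called and in 1.31% of the 686 windows of genes that fell at least 2-fold. Over all 32851 RefSeq windows its share was 1.79%. For TGATGNAA the same shares were 4.13%, 1.93%, 1.31% and 3.97%. Both motifs thus had a larger share among genes that rose steeply than among genes that fell steeply, given here as a description with no test. This was not particular to them. TTTCGCGC, an E2F site, was in 1.82%, 0.746% and 0.146% of genes that rose steeply, were not called and fell steeply. CACGTG, an E-box, had shares of 13.5%, 10.9% and 8.02% in the same classes. For the CArG box, an A/T-rich stretch between CC and GG, the shares were 2.19%, 1.29% and 0.729%. TGANTCA, a looser pattern than the AP-1 sites TGACTCA and TGAGTCA, was in 5.71%, 4.14% and 2.77% of these 3 classes. It was in 11 of the 50 called genes with the highest fold changes and 3 of the 50 with the lowest. Its share was 4.16% of all tested windows and 7.81% of all RefSeq windows. TATAAA was in 12.4%, 5.35% and 7.14% of the 3 classes, and in 14 and 1 of the same sets of 50. Its share was 6.35% of all tested and 13.6% of all RefSeq windows. In the same sets of 50, TGACGTCA was in 3 and 0, and TGATGNAA in 5 and 1. The TATA box is known from genes that switch on sharply and from replication-dependent histone genes. TCACNCCAC had shares of 1.34%, 1.08% and 1.17% among genes that rose steeply, were not called and fell steeply, close to the 1.24% of all RefSeq windows. CCAAT was in 40.7%, 38.9% and 40.5% of these 3 classes and 37.4% of all RefSeq windows. Several motifs can overlap in a window, and CRE and AP-1 sites share their first 3 letters.

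Long genes rose more often than short genes in total RNA. Protein-coding genes were divided into 5 equal groups by genomic span, introns included. In the shortest group, with a median span of 4956 bases, 17.1% rose and 31.3% fell. In the longest group, with a median span of 113803 bases, 30.2% rose and 13.6% fell. The groups between lay in order, with 17.5%, 22.1% and 27.7% called higher and 24.2%, 21.2% and 16.6% called lower, where all protein-coding genes gave 22.9% and 21.4%. The median log2 fold change went from −0.31 in the shortest to 0.22 in the longest group, and Spearman's rank correlation across the 8561 genes, which share their libraries, was 0.19. Without ribosomal protein and replication-dependent histone genes, both short, the shares called higher were 15.3% in the shortest and 30.4% in the longest group. GC content of the promoter window had a rank correlation of 0.02 over 6988 genes.

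Ribosome footprints did not show this order. Over the 7921 genes tested in both readouts, 17.9% rose and 32.1% fell in RNA in the shortest group, and 31.6% rose and 13.1% fell in the longest. Footprints of the same genes gave 26.1% higher and 21.6% lower in the shortest group and 21.1% higher and 22.1% lower in the longest. The rank correlation with span was 0.20 in RNA and −0.05 in footprints. The difference between readouts was not tested, and whether reads from introns were counted is not given in the sources used here.

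**Figure D3:**
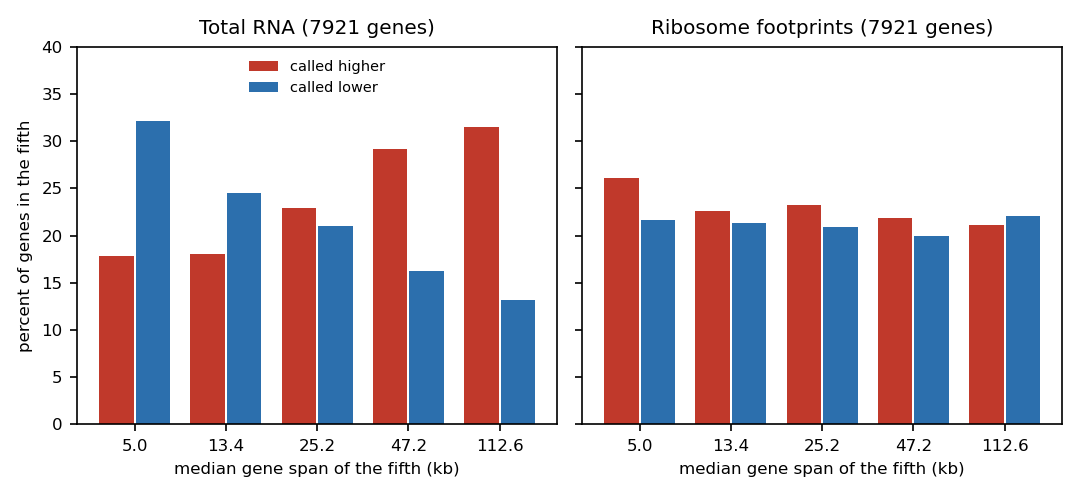
Percent of protein-coding genes called higher (red) and called lower (blue) in HF, in 5 equal groups by genomic gene span labelled with their median span in kilobases, for total RNA (left) and ribosome footprints (right) over the same 7921 genes. In RNA the red bars rise from 17.9% to 31.6% and the blue bars fall from 32.1% to 13.1%, while in footprints all bars stay between 19.9% and 26.1%.

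Genes that the 2 readouts called in opposite directions also differed in span. Of 1894 genes that rose in RNA and were tested in footprints, 61.8% also rose there, where 23% of all tested genes did, and 78 fell. Of 1696 that fell in RNA, 56.4% also fell in footprints, where 21.2% of all tested genes did, and 46 rose. The 78 genes with more RNA and fewer footprints had a median span of 74009 bases, and the 46 with less RNA and more footprints one of 7242 bases, against 25233 bases over all 7921. Genes called the same way in both readouts lay nearer to that value, with a median of 26383 bases for the 1171 higher in both and 18891 bases for the 956 lower in both. Among the 78 were the mechanosensitive channel gene Piezo1 (log2 fold change 1.16 in RNA and −0.58 in footprints) and the kinase gene Rock2 (1.05 and −1.88). Among the 46 were Fth1, the ferritin heavy chain (−0.86 and 1.48), the ribosomal protein gene Rpl39 (−0.81 and 1.16) and the kinase gene Nadk (−0.63 and 1.11). These 5 genes were picked after their values were seen. Across all 7921 genes, the RNA and footprint fold changes had a Pearson correlation of 0.71, where genes are not independent replicates.

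Non-coding RNA moved in both directions by class. Long non-coding RNA genes took 0.841% ± 0.0413 of control counts and 1.45% ± 0.0544 of HF counts (SD, n = 3 each), and 23 of 67 tested rose and 9 fell. Over all genes that are not protein-coding or have no type, 11.8% rose and 22.1% fell. Small nucleolar RNAs, which guide modification of other RNAs, counted 19 higher and 7 lower of 76, while small nuclear RNAs, mostly parts of the spliceosome, counted 1 higher and 14 lower of 31. Of 11 mitochondrial mRNAs 7 fell, of 21 mitochondrial tRNAs 8 fell, and none of either rose. Pseudogenes, whose counts can come from reads of their parent genes, counted 7 higher and 52 lower of 236. At an unadjusted p under 0.05 in edgeR, and by DESeq2, there were also 0 higher among the mitochondrial mRNAs and tRNAs. Small nucleolar RNAs counted 12 higher without RNA control 1, 12 without RNA control 2 and 12 without RNA HF 3, against 19 with all libraries. Small nucleolar RNAs counted 4 lower without RNA control 1, against 7 with all libraries. Small nuclear RNAs counted 3 higher without RNA control 1, against 1 with all libraries. Small nuclear RNAs counted 9 lower without RNA control 1 and 8 without RNA HF 2, against 14 with all libraries. Mitochondrial tRNAs counted 5 lower without RNA control 3 and 5 without RNA HF 2, against 8 with all libraries. Pseudogenes counted 31 lower without RNA control 1 and 34 without RNA HF 3, against 52 with all libraries.

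Individual non-coding RNAs followed no single direction. Vaultrc5, a vault RNA transcribed by RNA polymerase III, was at 3805, 2884 and 3184 CPM in the control libraries and 7516, 7856 and 7881 CPM in the HF libraries (log2 fold change 1.23 ± 0.075, adjusted p = 1.1e-22). Snhg15 and Snhg1, host genes that carry small nucleolar RNAs in their introns, were at 23.3, 38.1 and 16.8 CPM in the control libraries and 183, 174 and 134 CPM in the HF libraries, and at 123, 114 and 108 CPM in the control libraries and 466, 612 and 496 CPM in the HF libraries, in that order (2.69 ± 0.22 and 2.18 ± 0.13). All 3 had no overlap between groups. Snhg17, Snhg12 and Zfas1 had log2 fold changes of 2.38, 1.48 and 1.21, whereas the host genes Snhg3 and Snhg5 fell by 1.41 and 0.99, and the host gene Gas5 did not pass (0.16, adjusted p = 0.38). Neat1, the scaffold of paraspeckles, rose by 1.25 ± 0.14, Tug1 by 1.41 ± 0.17 and Pvt1 by 1.57 ± 0.30, while the abundant nuclear RNA Malat1 did not pass (0.11, adjusted p = 0.32), nor did Rn7sk, the RNA that holds P-TEFb inactive (0.10, adjusted p = 0.24). Xist, which coats the inactive X chromosome, was at 70.05, 109.9 and 79.8 CPM in the control libraries and 24.6, 21.6 and 15.3 CPM in the HF libraries (log2 fold change −2.08 ± 0.27, adjusted p = 1.7e-09). Rab26os, an antisense gene, had 72 counts over the control and 10 over the HF libraries (log2 fold change −3.19 ± 0.63, adjusted p = 2.6e-05), and without strand information it cannot be told apart from its sense partner. Of these, Vaultrc5, the Snhg genes other than Snhg15, Zfas1, Gas5, Neat1, Tug1, Pvt1, Malat1 and Rn7sk were picked after their values were seen.

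**Figure D4:**
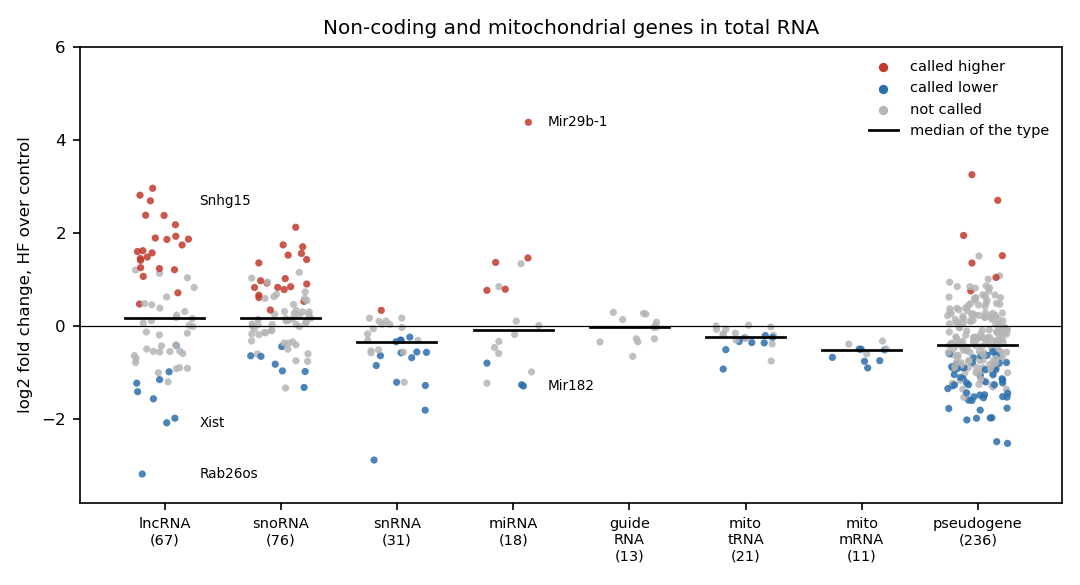
Log2 fold change of HF over control (y axis) for each tested gene of 8 RNA classes (x axis, number of genes in brackets), coloured by call, with a black line at the class median. Long non-coding and small nucleolar RNA genes have more red points, small nuclear RNA, mitochondrial genes and pseudogenes more blue points, and Mir29b-1 stands alone at the top of the miRNA column.

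Counts at 18 miRNA genes could be tested, and 5 rose and 3 fell, but most of these calls rested on few counts. Mature forms of 4 of the genes that rose are shown (RefSeq), with the seed, bases 2 to 8, in capitals, because they form 2 pairs with a shared seed. The counts do not separate mature miRNA, precursor and host transcript, so a change in mature miRNA was not measured.
mmu-miR-29a-3p: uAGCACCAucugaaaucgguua
mmu-miR-29b-3p: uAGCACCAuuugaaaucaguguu
mmu-miR-221-3p: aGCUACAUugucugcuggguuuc
mmu-miR-222-3p: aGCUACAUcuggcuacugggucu
The first pair shares the seed AGCACCA and is known for targeting collagen and other matrix mRNAs. The second pair shares the seed GCUACAU and is known for targeting cell cycle inhibitor mRNAs. Mir29b-1 (ENSMUSG00000065604, chr6:31063023-31063093) was at 1.61, 2.82 and 2.10 CPM in the control libraries and 45.7, 56.00 and 35.9 CPM in the HF libraries, which is 6 counts over the control and 170 over the HF libraries (log2 fold change 4.38 ± 0.51, adjusted p = 6.2e-11). Its neighbour Mir29a was at 14.5, 0 and 43.1 CPM in the control libraries and 20.2, 68.8 and 65.3 CPM in the HF libraries (log2 fold change 1.37 ± 0.40, adjusted p = 0.0036). The groups did not overlap for Mir29b-1, whereas for Mir29a RNA control 3 lay above RNA HF 1. Mir221 went from 71.03 to 119 CPM and Mir222 from 36.98 to 66.2 CPM, with log2 fold changes of 0.77 ± 0.19 and 0.79 ± 0.26. The other calls were Mir16-1 at 1.46 ± 0.55, Mir30a at −0.80 ± 0.25, Mir182 at −1.29 ± 0.48 and Mir6236 at −1.26 ± 0.27. Of the tested genes that share a seed with another tested gene, Mir30e, Mirlet7e and Mirlet7g did not pass (−0.59, adjusted p = 0.16, −0.33, adjusted p = 0.63 and −1.23, adjusted p = 0.066). All of these except Mir29b-1 were picked after their values were seen. Mir16-1, Mir182, Mir29a and Mir6236 without RNA control 1, Mir16-1, Mir182 and Mir222 without RNA control 2, Mir16-1 and Mir30a without RNA control 3, Mir16-1, Mir182 and Mir30a without RNA HF 1, Mir16-1, Mir182, Mir222 and Mir29a without RNA HF 2 and Mir16-1, Mir182 and Mir29a without RNA HF 3 no longer passed. The miRNA genes counted 3 higher without RNA control 1, 3 without RNA control 2, 2 without RNA HF 2 and 3 without RNA HF 3, against 5 with all libraries. The miRNA genes counted 1 lower without RNA control 1 and 1 without RNA HF 1, against 3 with all libraries.

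Lists of genes by family or pathway show where these changes were dense or sparse. Of 99 lists, 97 had at least 5 tested members, and 36 had a share called higher or lower at least 1.5 times that of all genes (23 on the higher side, 14 on the lower side, with P-type ATPases on both). The other 61 had 0% to 31.2% of members called higher and 0% to 30.6% called lower, with medians from −0.36 to 0.52. Lists were made with earlier results of these data known, no set test was run, and counts are to be read against 22.2% higher and 21.4% lower over all genes. For the lists below with 0 members called in a direction (NF-kB downward, and Hedgehog genes, proteasome, tetraspanins, TCA cycle, MHC class I and reference genes upward), edgeR also gave 0 at an unadjusted p under 0.05, apart from 1 proteasome subunit, and DESeq2 gave 0. Since span moved with the calls, the median span of a list's tested members is given where it is over 2 times, or under 1 in 2, of the 25238 bases of all protein-coding genes tested, and its part in the counts was not tested.

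**Figure D5:**
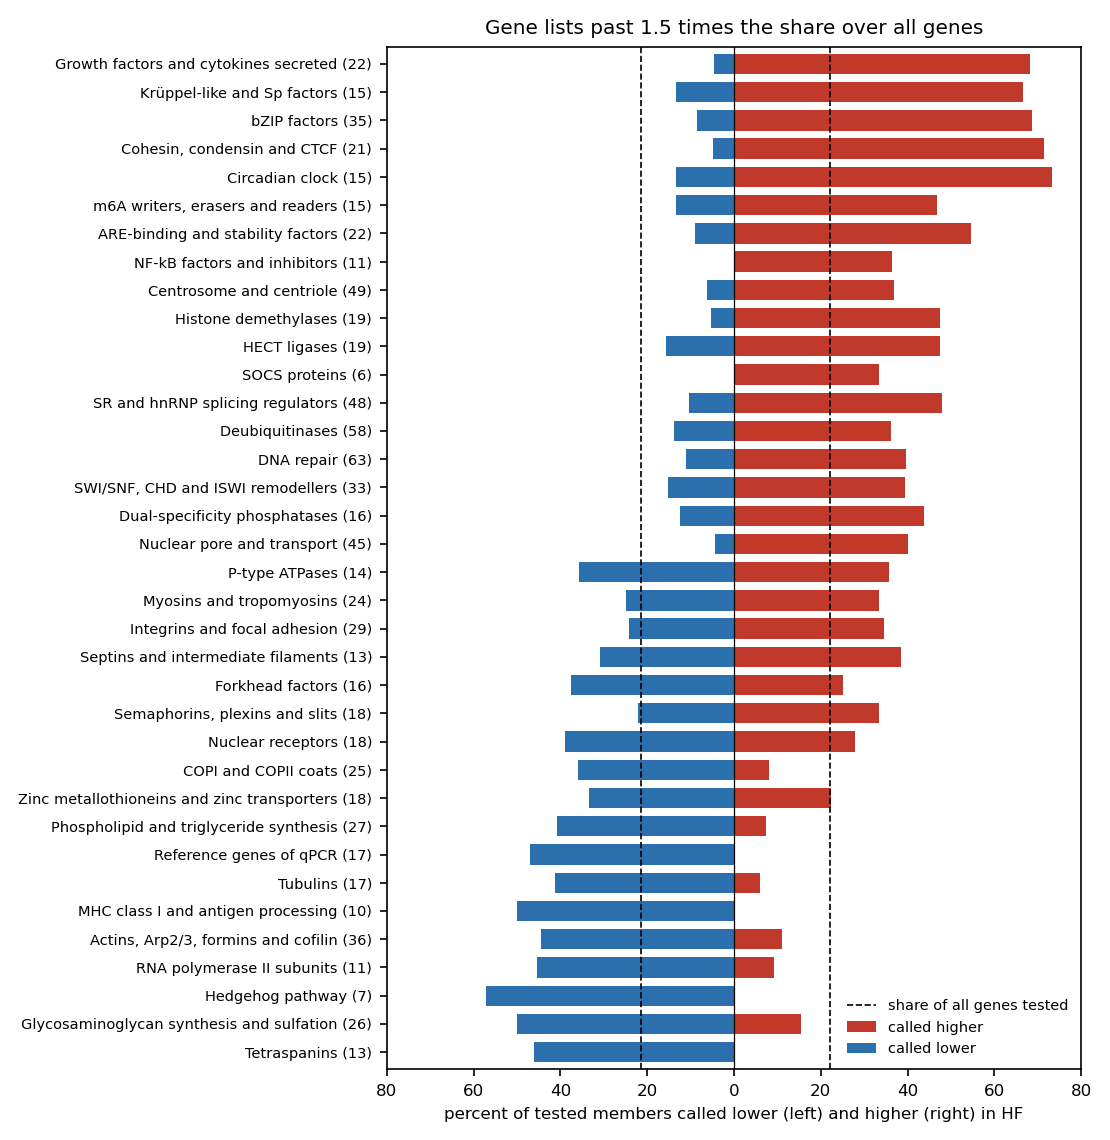
Percent of tested members called lower (blue, to the left) and higher (red, to the right) in HF for the 36 gene lists past 1.5 times the share over all genes, ordered by median log2 fold change, with the number tested in brackets and dashed lines at 22.2% and 21.4% for all genes tested. Secreted growth factors, Krüppel-like factors, bZIP factors, cohesin and condensin, and the clock form the top, and tetraspanins, glycosaminoglycan and Hedgehog genes the bottom.

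Secreted signals were among the lists with most increases. Of 119 growth factors and cytokines listed, 22 could be tested, of which 15 rose and 1 fell, with a median of 1.84. The filter on low counts keeps a gene expressed in only 1 group. Members near 0 in control, such as Il11 and Areg, therefore entered through their HF libraries. This can raise the share called higher, and its part in the count was not tested. The same limit holds for the other lists, and members near 0 in HF can likewise raise a share called lower. Il11, an interleukin of the IL-6 family that acts on fibroblasts, was at 3.22, 0 and 0 CPM in the control libraries and 45.7, 32.4 and 47.1 CPM in the HF libraries (log2 fold change 4.85 ± 0.59, adjusted p = 1.9e-10). Nrg1, a ligand of ERBB receptors, was at 11.3, 15.5 and 21.00 CPM in the control libraries and 214, 171 and 192 CPM in the HF libraries (log2 fold change 3.62 ± 0.23, adjusted p = 3.5e-22), and Areg, a ligand of the EGF receptor whose CRE is printed above, at 0, 5.64 and 4.20 CPM in the control libraries and 36.1, 34.4 and 45.9 CPM in the HF libraries (log2 fold change 3.73 ± 0.53, adjusted p = 2.3e-08). Control libraries of Il11 and Areg held very few counts, and no HF library of the 3 genes overlapped a control. Csf1, the growth factor of macrophages and the most abundant member, rose by 1.00 ± 0.096. On the receptor side, Egfr rose by 1.77 ± 0.23 and Pdgfrb fell by 2.30, and over all receptor tyrosine kinases 4 rose and 4 fell of 16 tested (median span 69494 bases). Fst, a secreted binder of activin, rose by 4.00 ± 0.50 among 15 genes of the BMP pathway, of which 3 rose and 3 fell. BMP pathway genes counted 1 lower without RNA control 1, against 3 with all libraries.

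Some lists of feedback regulators of signalling leaned upward. Of the dual-specificity phosphatases, which switch off MAP kinases, 7 of 16 tested members rose and 2 fell (median span 12475 bases), with Dusp8 at 3.27 ± 0.32 and Dusp2 at 2.45 ± 0.34, while Dusp9 fell by 2.32. Of 11 NF-kB factors and inhibitors 4 rose and 0 fell, namely Tnfaip3, a deubiquitinase that ends NF-kB signalling (3.31 ± 0.19), Relb (2.14 ± 0.37), Nfkb2 (1.10 ± 0.13) and Nfkb1 (0.55 ± 0.17). Of 6 SOCS genes, which restrain cytokine receptors, Socs4 and Socs7 rose (1.01 and 0.94). Hedgehog pathway genes went the other way, and 4 of 7 fell: the coreceptor Gas1 (−2.14 ± 0.50), the receptor Ptch1 (−1.51 ± 0.35), the transducer Smo (−1.45 ± 0.17) and the inhibitor Sufu (−0.52 ± 0.19), with a median span of 65133 bases. In the Wnt pathway 5 rose and 4 fell of 24 tested, with Wnt5a at 1.67 and the receptor Fzd7 at −1.85. Dusp9 and Nfkb1 without RNA control 1, Sufu without RNA control 2, Sufu without RNA HF 2, Sufu without RNA HF 3 and Wnt5a without RNA control 3 no longer passed. Wnt pathway genes counted 3 higher without RNA HF 1, against 5 with all libraries.

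Transcription factors of several families had many increases. Of the Krüppel-like and Sp factors, 10 of 15 tested members rose and 2 fell, with a median of 1.20. Klf6 was at 175, 190.3 and 201 CPM in the control libraries and 1012, 1032 and 955 CPM in the HF libraries (log2 fold change 2.41 ± 0.10, adjusted p = 2.1e-30), and Klf5 at 59.6, 60.6 and 67.2 CPM in the control libraries and 432, 397 and 468 CPM in the HF libraries (log2 fold change 2.79 ± 0.14, adjusted p = 4.3e-27). Both were cleanly separated by group. Klf10, an early-response gene of TGF-beta, rose by 2.47 ± 0.18. Among bZIP factors 24 rose and 3 fell of 35 tested, median 1.02 and median span 10145 bases, with Maff at 2.72 beside the better known Ddit3 and Atf3. C2H2 zinc finger genes, with names such as Zfp, Zscan or Zbtb, are a large family of mostly uncharacterised factors. They had 58 higher and 17 lower of 190, with Zfp948 at 3.35 ± 0.47 and Zbtb45 at −2.79 ± 0.64. The bZIP factors counted 1 lower without RNA control 1, 1 without RNA control 3, 0 without RNA HF 1, 1 without RNA HF 2 and 1 without RNA HF 3, against 3 with all libraries. C2H2 zinc finger genes counted 11 lower without RNA HF 3, against 17 with all libraries.

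Nuclear receptors and forkhead factors were mixed. Of 18 nuclear receptors 5 rose, among them Nr4a3, an early-response orphan receptor (3.41 ± 0.69), and Nr3c1, the glucocorticoid receptor (1.51 ± 0.18), and 7 fell, among them Nr1h2, the sterol-sensing LXR beta (−1.92 ± 0.41). Of 16 forkhead factors 4 rose, with Foxo3 at 1.45 ± 0.18 and Foxo1 at 1.01 ± 0.41, and 6 fell, with Foxo4 at −1.44 ± 0.50 and Foxc2 at −1.27 ± 0.37. Foxm1, a factor of the G2 and M phases, showed one of the smallest differences of any abundant gene (from 211 to 210.2 CPM). Among bHLH factors 10 rose and 6 fell of 34 tested, with Ahr, the aryl hydrocarbon receptor, at 2.54 ± 0.42 and Atoh8 at −3.94 ± 0.76. Foxc2 without RNA control 1, Foxo1 without RNA control 2, Foxo1 and Foxo4 without RNA control 3, Foxo1 and Foxo4 without RNA HF 2 and Foxo1 without RNA HF 3 no longer passed. Forkhead factors counted 2 higher without RNA control 3, 2 without RNA HF 2 and 2 without RNA HF 3, against 4 with all libraries. Forkhead factors counted 3 lower without RNA control 1 and 3 without RNA HF 1, against 6 with all libraries. The bHLH factors counted 3 lower without RNA control 1, against 6 with all libraries.

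Clock genes, which form the transcription loops of the daily rhythm, had the largest share called higher of the 36 lists: 11 of 15 tested members rose and 2 fell, with a median of 0.91. Nfil3, a repressor that acts on clock-controlled promoters, was at 39.5, 26.8 and 24.2 CPM in the control libraries and 157, 146 and 136 CPM in the HF libraries (log2 fold change 2.24 ± 0.21, adjusted p = 4.2e-14). Arntl, the activator BMAL1, was at 21.7, 22.6 and 17.9 CPM in the control libraries and 86.2, 91.4 and 93.6 CPM in the HF libraries (log2 fold change 2.12 ± 0.26, adjusted p = 2.3e-10). Nr1d1, the repressor REV-ERB alpha, was at 14.5, 19.7 and 21.00 CPM in the control libraries and 95.9, 73.7 and 83.00 CPM in the HF libraries (log2 fold change 2.21 ± 0.27, adjusted p = 3.6e-10). The activator gene Arntl and the repressor genes Nr1d1 and Nfil3 thus all lay higher in every HF library than in any control. Nfil3 is also counted with the bZIP factors and Nr1d1 with the nuclear receptors. Bhlhe41, another repressor of the loop, rose by 1.94 ± 0.29, and the kinase gene Csnk1d, the most abundant member, did not pass (−0.042, adjusted p = 0.81). The hour of sampling is not given in the sources used here.

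Several lists of chromosome structure and chromatin genes held more increases than decreases. For cohesin, condensin and CTCF, which shape and hold chromosomes, 15 of 21 tested members rose and 1 fell, with a median of 0.95. Smc5 rose by 1.72 ± 0.25, Smc2 by 1.52 ± 0.22, Smc4 by 1.31 ± 0.19 and Ncapg2 by 1.402 ± 0.18, and Rad21, the most abundant member, was at 0.23, adjusted p = 0.088. Of 19 histone demethylases 9 rose, led by Kdm5b (2.17 ± 0.22) and Kdm6b (1.47 ± 0.20), and 1 fell (median span 62363 bases). Among SWI/SNF, CHD and ISWI remodellers 13 rose and 5 fell of 33 tested (median span 67646 bases), with Ino80 at 1.89, Chd2 at 1.85 and Smarcc2 at −1.47. DNA repair genes counted 25 higher and 7 lower of 63, with the ligase gene Lig4 at 2.51 ± 0.63, Brca2 at 2.21 ± 0.54 and the checkpoint kinase gene Chek1 at 2.20 ± 0.39, whereas Chek2 fell by 1.92. Of 49 centrosome genes 18 rose and 3 fell, with Cep350 at 1.53 and Cep57 at 1.49. Brca2 without RNA HF 3 and Chek2 without RNA control 3 no longer passed. Centrosome genes counted 1 lower without RNA HF 1, against 3 with all libraries.

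Cell cycle regulators outside these lists were mixed. Among cyclins, CDKs and their inhibitors 5 rose and 10 fell of 38 tested, with the inhibitor Cdkn1a, known as p21, at 2.54 ± 0.23 and Ccnd1, the G1 cyclin D1, at −1.70 ± 0.11. Kinetochore genes counted 8 higher and 1 lower of 33. RNA polymerase II subunits, which transcribe mRNA, fell more often than they rose (5 lower, 1 higher of 11, median span 6793 bases), with the catalytic subunit gene Polr2a at 384, 328 and 366 CPM in the control libraries and 162, 170.0 and 147 CPM in the HF libraries (log2 fold change −1.19 ± 0.12, adjusted p = 8.7e-13). Its 3 HF libraries lay below all controls. Cyclins, CDKs and their inhibitors counted 6 lower without RNA control 3, 6 without RNA HF 1 and 5 without RNA HF 3, against 10 with all libraries. Kinetochore genes counted 4 higher without RNA control 1, 5 without RNA control 2, 5 without RNA HF 1 and 4 without RNA HF 3, against 8 with all libraries. Kinetochore genes counted 3 lower without RNA control 1, against 1 with all libraries.

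Most lists of genes that act on RNA had more increases than decreases, but not all. Of the SR and hnRNP splicing regulators, 23 of 48 tested members rose and 5 fell, with a median of 0.38. Clk4, a kinase that phosphorylates SR proteins, rose by 2.48 ± 0.27, Rbm39 by 1.49 ± 0.15 and Tra2a by 1.36 ± 0.13. For the core spliceosome 10 rose and 12 fell of 57 tested, and for tRNA and rRNA modification enzymes 5 rose and 9 fell of 41 tested. Of 22 factors that bind AU-rich elements or set mRNA stability 12 rose and 2 fell, with the polyadenylation element binders Cpeb2 and Cpeb4 at 2.41 ± 0.25 and 2.13 ± 0.33 and the decay factor Zfp36l1 at 1.91 ± 0.35. Of 15 genes of the m6A mark, a methyl group on adenosines of mRNA, 7 rose and 2 fell, with the helicase reader Ythdc2 at 1.83 ± 0.49 and the writer subunit Mettl14 at 1.29 ± 0.35. Nuclear pore and transport genes counted 18 higher and 2 lower of 45, with Ranbp2, a large filament protein of the pore, at 1.56 ± 0.21. Btg2, an antiproliferative activator of deadenylation whose promoter holds a CRE above, went from 5.11 to 68.3 CPM. SR and hnRNP regulators counted 3 lower without RNA HF 1 and 3 without RNA HF 3, against 5 with all libraries. The tRNA and rRNA modification enzymes counted 3 higher without RNA HF 2, against 5 with all libraries. The tRNA and rRNA modification enzymes counted 5 lower without RNA control 1, against 9 with all libraries.

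Ubiquitin ligases of the HECT type and deubiquitinases leaned upward, and no proteasome subunit passed upward. Of 19 HECT ligases 9 rose and 3 fell (median span 100709 bases), with Herc1 at 1.29 ± 0.23 and Smurf1 at 0.77 ± 0.13. Of 58 deubiquitinases 21 rose and 8 fell, with Otud1 at 2.76 ± 0.19 and Usp53 at 1.71 ± 0.35. Of 40 proteasome subunits 0 rose and 11 fell (median span 11930 bases), including the activator subunit Psme1 (−1.54 ± 0.40), the core subunit Psma1 (−1.32 ± 0.23) and the ATPase Psmc3 (−1.02 ± 0.14).

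Cytoskeleton genes changed in both directions in total RNA. Of 17 tubulin genes 7 fell and 1 rose (median span 8215 bases). Tuba1b, an alpha-tubulin, was at 108, 81.8 and 118 CPM in the control libraries and 19.3, 25.5 and 17.7 CPM in the HF libraries (log2 fold change −2.33 ± 0.25, adjusted p = 5.3e-12), and Tuba1a and Tubb4b fell by 2.04 and 1.85. The HF libraries of Tuba1b lay far below the controls. Tubulin genes are close copies of each other, so reads may be divided between them. Of 36 genes for actins, the Arp2/3 complex, formins and cofilin 16 fell, with Fhod1 at −1.48 and Arpc1b at −1.26, and 4 rose, with the formin gene Daam1 at 2.21 ± 0.35. Motor genes were mixed. Of 24 myosins and tropomyosins 8 rose and 6 fell (median span 56628 bases). Kinesins counted 7 higher and 4 lower of 28, and dynein and dynactin genes 5 higher and 3 lower of 18. The dynein heavy chain gene Dync1h1 rose by 2.13 ± 0.11. The kinesin gene Kif5b rose by 1.60 ± 0.17, but its footprints were called lower (−0.42). Dynein and dynactin genes counted 0 lower without RNA control 3, 1 without RNA HF 2 and 0 without RNA HF 3, against 3 with all libraries. Septins and intermediate filaments had 5 higher and 4 lower of 13, with the keratin gene Krt80 at 2.01 and Sept6 at −2.27, while Vim, the main intermediate filament of fibroblasts, was at −0.17, adjusted p = 0.059. Septins and intermediate filaments counted 3 higher without RNA control 1, against 5 with all libraries.

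Adhesion genes also changed in both directions. Of 29 integrin and focal adhesion genes 10 rose and 7 fell (median span 64018 bases). The filamin gene Flnc rose by 1.90, while Flna, the best known filamin of non-muscle cells, was at 0.015, adjusted p = 0.9. Itgb5 and the tensin gene Tns1 fell by 2.56 and 1.87. Among semaphorins, plexins and slits, guidance cues first known from axons, 6 rose and 4 fell of 18 tested (median span 110150 bases), with Sema3c at 1.27 and Sema4b at −1.21. Tetraspanins, which organise membrane proteins, had 6 of 13 lower and 0 higher, with Cd81 at −1.07 ± 0.16 and Cd9 at −0.96 ± 0.18. Of 20 genes for matrix metalloproteinases, ADAM proteases and TIMP inhibitors 4 rose and 6 fell. The inhibitor gene Timp3 rose by 2.64 ± 0.11, while the inhibitor gene Timp2 was at −0.45 and the membrane protease gene Mmp14 fell by 1.32. This list counted 2 higher without RNA control 3, against 4 with all libraries.

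Several lists of glycan, lipid and vesicle coat genes held more decreases than increases, while others were even or leaned upward. Of 26 genes for glycosaminoglycan synthesis and sulfation, which build heparan and chondroitin chains, 13 fell and 4 rose, with a median of −0.59. The sulfotransferase gene Chst1 was at 42.7, 26.8 and 53.6 CPM in the control libraries and 1.76, 1.96 and 2.35 CPM in the HF libraries (log2 fold change −4.25 ± 0.53, adjusted p = 4e-10), and Chst12 at 32.2, 26.8 and 27.3 CPM in the control libraries and 3.52, 0 and 1.77 CPM in the HF libraries (log2 fold change −3.92 ± 0.62, adjusted p = 3.1e-07). Both were near 0 in HF libraries and so passed the filter on low counts through their control libraries. This can raise the share called lower, and its part in the count of this list was not tested. Has2, which makes hyaluronan, a chain without sulfate, rose and went from 6.37 to 23.1 CPM. Of 27 enzymes of phospholipid and triglyceride synthesis 11 fell, with Chpt1 at −1.54, and 2 rose, Chka, a choline kinase, at 1.95 ± 0.18 and Gpat3 at 1.85 ± 0.31. Of 25 genes of the COPI and COPII coats, which carry cargo between the endoplasmic reticulum and the Golgi, 9 fell and 2 rose. N-glycan synthesis had 11 lower and 3 higher of 36, with Mgat5 at −2.01. Among sphingolipid enzymes 6 rose and 4 fell of 24 tested, among genes of GPI anchor synthesis 2 rose and 2 fell of 16 tested, and among clathrin and its adaptors 7 rose and 6 fell of 26 tested. Chpt1 without RNA control 3 and Chpt1 without RNA HF 1 no longer passed. Phospholipid and triglyceride enzymes counted 7 lower without RNA control 1, 6 without RNA control 3, 6 without RNA HF 1, 7 without RNA HF 2 and 5 without RNA HF 3, against 11 with all libraries. GPI anchor genes counted 4 higher without RNA control 2, against 2 with all libraries.

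Zinc and ion handling showed a split within lists. The metallothionein genes Mt2 and Mt1, whose products bind zinc and copper, were at 37.04, 47.9 and 39.9 CPM in the control libraries and 489, 459 and 480.4 CPM in the HF libraries, and at 152, 103 and 158 CPM in the control libraries and 419.5, 463 and 496 CPM in the HF libraries, in that order (3.54 ± 0.15 and 1.72 ± 0.13). Slc30a1, the zinc exporter of the plasma membrane, was at 12.9, 21.1 and 16.8 CPM in the control libraries and 127, 137 and 131 CPM in the HF libraries (log2 fold change 2.995 ± 0.25, adjusted p = 1.2e-16). Slc39a10, a zinc importer, was at 28.2, 67.7 and 35.7 CPM in the control libraries and 10.6, 7.86 and 4.71 CPM in the HF libraries (log2 fold change −2.50 ± 0.43, adjusted p = 1.9e-06). The 3 genes known to respond to zinc thus lay higher in every HF library, and the importer lower. Over the 18 zinc genes 4 rose and 6 fell. Of 14 P-type ATPases 5 rose and 5 fell (median span 62581 bases), with the calcium pump genes Atp2b1 and Atp2b2 at 1.60 and 1.91 and Atp13a2 at −1.29. Among all 138 solute carriers 29 rose and 34 fell. Atp13a2 without RNA control 2 and Atp13a2 without RNA HF 2 no longer passed. Zinc genes counted 3 lower without RNA control 1, against 6 with all libraries. P-type ATPases counted 3 lower without RNA control 2 and 2 without RNA HF 2, against 5 with all libraries.

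No gene passed upward in the TCA cycle list or among MHC class I genes. In the TCA cycle and pyruvate dehydrogenase list 0 rose and 7 fell of 29, and the 24.1% called lower was near the 21.4% of all genes. Idh1, at −2.00 ± 0.35, encodes the cytosolic isocitrate dehydrogenase, which acts outside the mitochondrial cycle. Of the mitochondrial enzyme genes, Idh2 was at −1.15, Sdhb at −0.94, Cs at −0.32 and Sdha at 0.064. Footprints of Sdhb were called higher (0.68). Cs without RNA control 1 and Cs without RNA HF 1 no longer passed. Of 10 genes of MHC class I and antigen processing 5 fell and 0 rose (median span 5506 bases), with H2-T22 at −1.76 and B2m, the light chain of class I molecules, at −0.41.

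Genes often used as references in quantitative PCR were not neutral. Of 17 such genes 8 fell and 0 rose (median span 8516 bases). Gapdh, a glycolytic enzyme with many pseudogene copies that make its count uncertain, was at 58.8, 78.9 and 94.5 CPM in the control libraries and 25.5, 37.3 and 28.3 CPM in the HF libraries (log2 fold change −1.35 ± 0.26, adjusted p = 1.2e-05). Polr2a, Gusb, Actb and B2m fell by 1.19, 1.01, 0.59 and 0.41, and Ppia and Eef1a1 by 0.61 and 0.50. Ywhaz, a 14-3-3 protein, was at 329, 375 and 343 CPM in the control libraries and 342, 342 and 354 CPM in the HF libraries (log2 fold change −0.0065, adjusted p = 0.97), and Sdha at 122, 154 and 166 CPM in the control libraries and 166, 139 and 152 CPM in the HF libraries (0.064, adjusted p = 0.76). In both the control and HF libraries overlapped. Tbp was at 0.089, adjusted p = 0.81. Among abundant genes, the smallest differences included the RNA-binding protein gene Hdlbp, which went from 794 to 795 CPM and Nes, an intermediate filament of progenitor cells (from 313 to 314 CPM). Ppia without RNA control 1, Ppia without RNA control 3 and Ppia without RNA HF 3 no longer passed.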

How the data were processed

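Per the labels' protocols, RNA from MEF was extracted with Trizol, fragmented by alkaline hydrolysis and size-selected on a gel, and per the submitters' processing notes the tools were Bowtie, HISAT2 and HTSeq on the GRCm38 build, without versions. The values the authors deposited are raw counts per gene, 1 table per library. The sources used here do not give the counted feature or strand setting. Low counts were mostly even (64.6% to 68.4% of nonzero counts per RNA library), so counting intervals were computed on halved counts.

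The 3 RNA HF and 3 RNA control libraries were grouped by their labels and compared with edgeR 4.0.16 in R 4.3.3 (quasi-likelihood test, TMM factors, filterByExpr with a minimum count of 10, Benjamini-Hochberg adjustment over all genes tested, threshold 0.05). The biological coefficient of variation was 0.145. CPM values are TMM-scaled. On simulated counts for 8883 genes of this comparison, the test called 68 of 100 genes changed 2-fold, 96 of 100 changed 4-fold and 6 unchanged genes. The simulation changed only these genes, gave all genes the same dispersion and drew counts independently. In the data 43.7% of genes were called and low counts were mostly even, so these rates may not carry over. Footprints were fitted in the same way, separately. Log2 fold changes of genes with 1 to 3 counts in a group depend on the prior count, and their ratios are given instead.

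The genes described and the lists were chosen with earlier results of these data known. Named genes followed a rule: the 12 largest CPM gains and losses, the 12 highest and lowest fold changes, the 5 highest and lowest non-coding fold changes, up to 4 changed members and the most abundant member of each list, the reference genes, the 6 smallest changes and the 6 smallest p-values. Gene types, promoters, miRNA and spans are from RefSeq tables of GRCm38.p6, matched by identifier or symbol. Alternatives were other scaling factors, filters, protein-coding genes only, halved counts, a replicate block, DESeq2 1.42.0 (default settings), a test against 2-fold (edgeR's glmTreat) and leaving out each library.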

Additional observations from a re-analysis of the deposited data

How the results depend on the processing

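Against 2031 genes higher and 1961 lower, scaling, filter and model alternatives (median-ratio and upper-quartile factors, no filter, a minimum count of 20, protein-coding genes only, halved counts, DESeq2 and the replicate block) gave 1880 to 2062 higher and 1703 to 2151 lower, and leaving out each library gave 1757 to 1964 and 1604 to 1856. No gene was called in the opposite direction under any of these. Requiring a change beyond 2-fold in the test itself left 580 genes, 377 higher and 203 lower, in place of 1081 and 888 with a fitted change of at least 2-fold. Without a filter on low counts 70 lists, in place of 36, passed 1.5 times the share over all genes. Upper-quartile factors moved the median of all genes from −0.02 to −0.07 and the share of calls that were higher from 50.9% to 46.7%. With the replicate number as a block, 2005 genes were higher and 1928 lower, but the numbers did not pair the libraries: same-numbered libraries correlated at 0.0053, 0.0112 and −0.0087 in their deviations from the group means, and others at −0.0275 to 0.0257. Of 468 called genes named by the rule, 81 lost the call under at least 1 alternative (6 under the block, 16 under DESeq2, 20 without the filter, 21 to 45 without 1 library), and none reversed. Without ribosomal RNA and mitochondrial loci, an alternative added after seeing the data, 2068 genes were higher and 1931 lower. Depth limits the weak genes most, since library totals were at most 1697554 counts.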
